A study of Homo sapiens with 12 samples.

Results

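The IGFL genes are a family cluster on human chromosome 19, and 6 of the 62757 genes in the count table carry its names: the protein-coding IGFL1, IGFL2, IGFL3 and IGFL4, the pseudogene IGFL1P1 and the long non-coding RNA IGFL2-AS1. They were chosen by name, and the cluster itself was selected on measured counts: IGFL2-AS1 and IGFL1P1 had already been seen to be high in cells given either AIPL1 vector, against the non-transduced control and against AAV9-GFP. Their values in those contrasts are therefore given as a description with no test. IGFL proteins are small secreted proteins with a cysteine pattern related to that of insulin-like growth factors, and IGFLR1 is a cell surface receptor described for IGFL1. The family is known mainly from skin, where IGFL1 is raised in inflamed epidermis. IGFL2-AS1 is named for its place on the strand opposite IGFL2, although the annotation places it beside IGFL2 and not over it.

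The cells were ARPE-19, an established line of human retinal pigment epithelium. Every group, controls included, first had 120 h in 3 µM fenretinide (a synthetic retinoid) to drive trans-differentiation. The vectors were AAV9-AIPL1co, with a codon-optimized AIPL1 sequence, AAV9-AIPL1wt, with the native one, and AAV9-GFP, with the gene of green fluorescent protein. Each was given at 100000 vector genomes per cell, while the control was non-transduced. There were 4 groups of 3 replicates, all of the same line. RNA was taken 18 h after transduction by the methods text and 24 h by the results text. Poly(A)-selected RNA was sequenced in 12 libraries of 6322811 to 9075660 gene counts. Control replicate 1, which the quality control of the original work set apart from the other controls, was left out of the comparisons, so the control has n = 2. Its values are given beside the results of the IGFL genes and of some other genes. Where none is given, its level may differ from that of the other controls. The file names give 2 sequencing run dates: control replicate 1 is the only control of the first run.

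The label of the cell line could be checked in part. Of 9 retinal pigment epithelium markers, 7 had more than 3 counts in a library, while RPE65 and TYR, which mark mature pigmented cells, had 0 counts in all 12. The summed level of the list lay at 3734 to 4034 normalized counts in AAV9-AIPL1co, 5705 to 6342 in AAV9-AIPL1wt, 6228 to 7466 in AAV9-GFP and 4235 to 8415 in the 3 controls. Most of this sum was KRT8 and KRT18, with means of 1914 and 1181 in AAV9-AIPL1co and 4359 and 2722 in control replicates 2 and 3, while OTX2 had 597 and 479.6. Control replicate 1 had 1930, 1612 and 434.7 normalized counts of KRT8, KRT18 and OTX2. Among photoreceptor markers NRL had 4 to 14 counts in every library and ARR3 0 to 6, and CRX and RCVRN did not pass 2. The neuron marker sum lay at 19.2 to 35.6 normalized counts in AAV9-AIPL1co, 28.0 to 41.3 in AAV9-AIPL1wt, 55.8 to 86.7 in AAV9-GFP and 28.6 to 85.8 in the 3 controls. NEFM was at 0 in all 12, and most of the sum was TUBB3. Against control replicates 2 and 3 TUBB3 had log2 fold changes of -1.65 (SE 0.27, adjusted p = 8.76e-05 by edgeR) in AAV9-AIPL1co and -1.45 (SE 0.27, adjusted p = 0.000177) in AAV9-AIPL1wt. Its means were 21.0 and 25.1 normalized counts in these groups, against 66.8 in those controls and 24.4 in control replicate 1. A fit of TUBB3 with that library kept is not given here. All 3 T cell markers were at 0 in all 12 libraries, and of the keratinocyte markers KRT14, KRT1 and DSG3 were at 0 and KRT5 and TP63 did not pass 1 count in a library. KRT10 made up nearly all of the keratinocyte sum, which lay at 634 to 668 normalized counts in the AAV9-AIPL1co libraries, 789 to 1083 in AAV9-AIPL1wt, 462 to 569.5 in AAV9-GFP and 246.0 to 392.1 in the 3 controls. The part of these markers in the results below was not tested. The codon-optimized AIPL1 entry of the count table had 11, 13 and 19 counts in the 3 AAV9-AIPL1co libraries and 0 in the others, and an entry of the GFP vector had 2, 1 and 4 in the AAV9-GFP libraries and 0 in the others. The native AIPL1 vector entry had 0 counts in all 12 libraries, and the AIPL1 gene itself had at most 1, so the AAV9-AIPL1wt label could not be checked this way.

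In GRCh38 the cluster runs from IGFL4 (minus strand, chr19:46039182-46077118) through IGFL3 (minus, chr19:46120067-46124688), IGFL2 (plus, chr19:46143106-46161298) and IGFL2-AS1 (minus, chr19:46189029-46203160) to IGFL1 (plus, chr19:46229742-46231243). IGFL1P1 (plus, chr19:46196238-46197323) lies wholly inside an intron of IGFL2-AS1 on the opposite strand. Gencode gives IGFL2-AS1 14 transcripts over 6 exon blocks with 3336 exonic bases, and IGFL1P1 4 blocks with 360. No exon of these 2 genes overlaps. The libraries kept no strand: 49.9% to 50.2% of the gene counts fell on the forward strand, and for IGFL2-AS1 1047 reads were counted on the forward and 1068 on the reverse strand setting. A read in the IGFL1P1 exons can therefore come from the pseudogene or from unspliced IGFL2-AS1, and these cannot be told apart here.

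**Figure D1:**
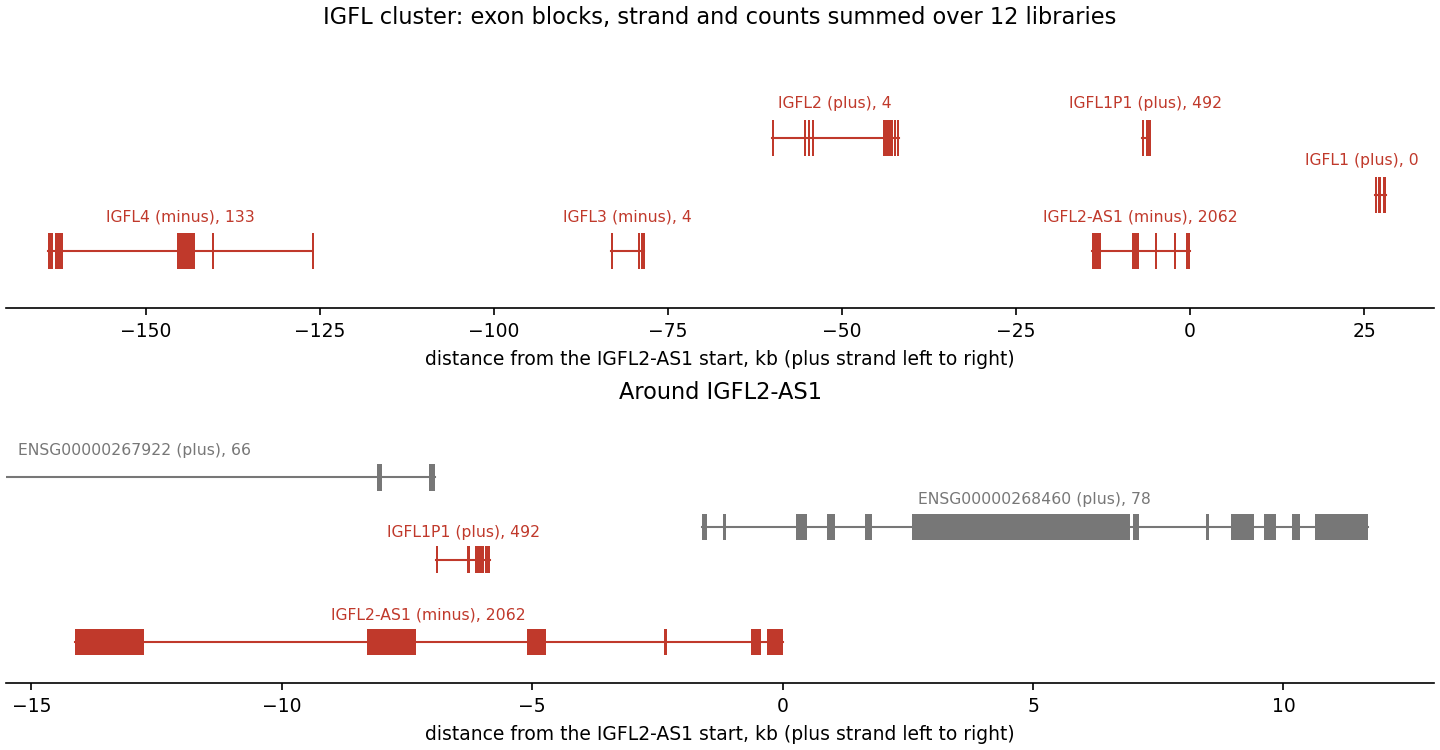
Exon blocks (boxes) and spans (lines) of the IGFL genes in red and of the pair of unnamed long non-coding RNAs around IGFL2-AS1 in grey, by distance in kb from the start of IGFL2-AS1, with strand and the counts summed over 12 libraries. IGFL1P1 sits in an IGFL2-AS1 intron, and nearly all counts of the cluster fall on IGFL2-AS1 (2062) and IGFL1P1 (492).

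The sequences that identify the transcript counted as IGFL2-AS1 are its exons. The first exon is the form used by 10 of 14 annotated transcripts, the short middle exon is in 8, and the last exon shown is in 4. They are printed 5′ to 3′ on the minus strand from GRCh38, with the intron dinucleotide next to the exon in capitals.
First exon (chr19:46202840-46203083): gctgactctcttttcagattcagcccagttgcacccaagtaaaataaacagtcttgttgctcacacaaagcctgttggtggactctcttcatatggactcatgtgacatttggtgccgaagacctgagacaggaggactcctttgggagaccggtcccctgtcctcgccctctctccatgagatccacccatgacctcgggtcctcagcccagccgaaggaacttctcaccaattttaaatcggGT
Middle exon (chr19:46198408-46198442): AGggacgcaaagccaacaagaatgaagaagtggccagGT
Last exon (chr19:46189029-46189229): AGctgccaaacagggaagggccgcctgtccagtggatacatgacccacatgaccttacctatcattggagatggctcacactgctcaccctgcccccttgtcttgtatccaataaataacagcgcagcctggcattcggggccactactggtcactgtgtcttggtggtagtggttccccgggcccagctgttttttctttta

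Each printed junction has the GT and AG that flank introns. The only exonic bases that IGFL2-AS1 shares with an opposite-strand gene are 100 bases of one block, which are also an exon of the long non-coding RNA ENSG00000267922. Reads there were left out of the counts without strand.
Adding the forward and reverse settings of STAR, which drops no such read, gave 53 more reads for IGFL2-AS1 over the 12 libraries, against 2062 without strand.

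IGFL1P1 resembles IGFL1, so reads of one could have been given to the other. Blocks 3 and 4 of the pseudogene, with the bases between them, are printed against exon 3 of IGFL1, a coding exon, with bases that differ or have no partner in capitals (both plus strand, GRCh38).
IGFL1P1 (chr19:46197025-46197323): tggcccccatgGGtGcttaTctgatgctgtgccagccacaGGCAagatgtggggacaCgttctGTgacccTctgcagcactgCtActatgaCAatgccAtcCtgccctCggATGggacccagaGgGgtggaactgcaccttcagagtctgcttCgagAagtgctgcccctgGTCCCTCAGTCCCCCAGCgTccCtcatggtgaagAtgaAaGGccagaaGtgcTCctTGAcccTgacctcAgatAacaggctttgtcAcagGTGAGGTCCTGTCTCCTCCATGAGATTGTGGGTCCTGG
IGFL1 exon 3 (chr19:46230274-46230517): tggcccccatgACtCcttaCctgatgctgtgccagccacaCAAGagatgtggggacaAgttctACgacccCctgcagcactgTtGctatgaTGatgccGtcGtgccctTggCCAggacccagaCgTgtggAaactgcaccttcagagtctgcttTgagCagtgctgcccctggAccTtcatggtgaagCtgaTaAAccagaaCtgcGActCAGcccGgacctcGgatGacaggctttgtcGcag

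Of 243 aligned bases 201 were identical (82.7%), with 42 mismatches, and 56 bases of the pseudogene and 1 of IGFL1 had no partner. With reads of 60 bases, all 163 windows within IGFL1P1 exons and all 549 within IGFL1 exons occurred once in the genome, and so did 2970 of 2982 windows of IGFL2-AS1. For IGFL4 this held for 3261 of 3805 windows (85.7%). Error-free reads of IGFL1P1 and IGFL1 can thus be assigned to one gene.

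IGFL2-AS1 had 233, 353 and 480 counts in the 3 AAV9-AIPL1co libraries and 156, 464 and 167 in AAV9-AIPL1wt. It had 18, 21 and 16 counts in AAV9-GFP and 6 and 10 in control replicates 2 and 3. Every library of either AIPL1 vector was above every one of these 5. Control replicate 1 had 138 counts, far above its group and below all 6 AIPL1 libraries.

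Scaled for depth, the mean was 367 ± 163 normalized counts in AAV9-AIPL1co and 276 ± 136 in AAV9-AIPL1wt (SD, n = 3 each). It was 18.7 ± 1.60 in AAV9-GFP (n = 3) and 6.95 ± 1.83 in the control (n = 2). The fitted log2 fold change against the control was 5.66 (SE 0.52) for AAV9-AIPL1co and 5.24 (SE 0.53) for AAV9-AIPL1wt, and against AAV9-GFP it was 4.28 (SE 0.38) and 3.86 (SE 0.39). Since IGFL2-AS1 was chosen for these contrasts, they carry no test. In them 46.8%, 56.3%, 30.9% and 51.1% of the 13896 genes tested had an adjusted p under 0.05, in the same order. With control replicate 1 kept, the differences from the control were 3.06 (SE 0.70) and 2.66 (SE 0.70) on the log2 scale.

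In both sequencing runs the 2 AIPL1 vectors lay above AAV9-GFP, but their own order differed between the runs. In the first run the AAV9-AIPL1co and AAV9-AIPL1wt means were 24.6 and 11.04 times that of AAV9-GFP, and in the second 10.9 and 21.4 times. Against the control the ratios were 31.6 and 62.2 in the second run, where the control had 2 libraries, and 3.79 and 1.70 in the first, where control replicate 1 is the only control. With 1 or 2 libraries a group in each run, these ratios have no test.

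The contrasts that did not serve to choose IGFL2-AS1 were tested. AAV9-AIPL1co and AAV9-AIPL1wt overlapped, and the log2 difference of 0.42 (SE 0.27, 95% interval -0.12 to 0.95) did not pass edgeR's quasi-likelihood test (adjusted p = 0.231), in a comparison where 41.5% of genes were called. This outcome depends on AAV9-AIPL1wt replicate 2, with 464 counts: without it the difference was 0.90 with an adjusted p of 0.00489. The difference also passed with that library kept and no filter on low counts (0.39, adjusted p = 0.0355). AAV9-GFP lay above the control in all 3 libraries, by 1.38 (SE 0.76, 95% interval -0.11 to 2.86), which did not pass (adjusted p = 0.249). Here 8.96% of genes were called. This difference turned to -1.22 (SE 0.87) with control replicate 1 kept, with an adjusted p of 0.356.

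IGFL1P1 had 56, 77 and 81 counts in AAV9-AIPL1co and 44, 155 and 36 in AAV9-AIPL1wt. It had 2, 3 and 0 counts in AAV9-GFP and 0 and 1 in control replicates 2 and 3, and 37 in control replicate 1. All 6 AIPL1 libraries lay above those 5, and AAV9-AIPL1wt replicate 3 had 1 count fewer than control replicate 1 before scaling. The gene passed the filter on low counts through the AIPL1 libraries alone: neither the AAV9-GFP libraries nor control replicates 2 and 3 reached the 1.245 CPM it asks for.

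The mean was 72.8 ± 19.4 normalized counts in AAV9-AIPL1co, 81.2 ± 55.6 in AAV9-AIPL1wt, 1.66 ± 1.49 in AAV9-GFP (SD, n = 3 each) and 0.412 ± 0.583 in the control (n = 2). Summed and scaled for depth, AAV9-AIPL1co had 42.1 times the counts of AAV9-GFP (95% counting interval 17.8 to 131) and AAV9-AIPL1wt 50.8 times (21.5 to 158). Against the single count of the control the ratios were 163 (28.9 to 6466) and 197 (35.0 to 7804). These intervals cover counting error only. Between the AIPL1 vectors the log2 difference was -0.18 (SE 0.34, 95% interval -0.83 to 0.48, adjusted p = 0.704 by edgeR). Leaving out AAV9-AIPL1wt replicate 2 turned its sign, to 0.58 with an adjusted p of 0.104. The AAV9-GFP and control groups together held 6 counts, too few to compare them.

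Per length IGFL1P1 had the higher value of the pair, though its reads cannot be told from those of unspliced IGFL2-AS1. In AAV9-AIPL1co it stood at 25.8 ± 6.89 RPKM (counts per kilobase of exon, scaled for depth; SD, n = 3) against 14.1 ± 6.25 RPKM for IGFL2-AS1, and in AAV9-AIPL1wt at 28.8 ± 19.7 against 10.6 ± 5.21 RPKM. The length used for IGFL2-AS1 is the union of all its transcripts, which lowers its value where only some are made.

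Both genes were high in the same libraries, those of the AIPL1 vectors, on which both were chosen, and control replicate 1. Of the counts on the 2 genes, IGFL1P1 took 17.2% ± 2.54 in AAV9-AIPL1co and 21.6% ± 3.67 in AAV9-AIPL1wt (SD, n = 3 each). The shares ran from 14.4% to 19.4% and from 17.7% to 25.0%, and the difference of -4.35 percentage points had p = 0.3 in a two-sided exact permutation test, which with 3 against 3 cannot go below 0.1. Control replicate 1 had a share of 21.1% (95% Clopper-Pearson 15.3% to 27.9%). In the 5 AAV9-GFP and remaining control libraries together it was 6 of 77 counts, or 7.79% (2.91% to 16.2%).

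IGFL4, the coding gene at the far end of the cluster, was scarce but present in all 12 libraries. It had 20, 13 and 10 counts in AAV9-AIPL1co, 8, 13 and 8 in AAV9-AIPL1wt, 10, 6 and 3 in AAV9-GFP and 7 and 1 in control replicates 2 and 3. The library with the most was control replicate 1, with 34. IGFL4 reached the filter's 1.245 CPM in 3 AAV9-AIPL1co, 2 AAV9-AIPL1wt, 1 AAV9-GFP and 0 of the 2 control libraries. It thus passed mainly through AIPL1 libraries, which limits its adjusted p values against the control and AAV9-GFP.

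IGFL4 had a higher mean in both AIPL1 groups than in control replicates 2 and 3, and a lower one than the 28.6 normalized counts of control replicate 1. Its mean was 14.2 ± 4.05 normalized counts in AAV9-AIPL1co and 10.6 ± 1.60 in AAV9-AIPL1wt (SD, n = 3 each), against 3.71 ± 4.08 in the control (n = 2). The log2 fold change was 1.97 (SE 0.57, adjusted p = 0.00863 by edgeR) and 1.51 (SE 0.61, adjusted p = 0.0421). Both calls were lost without control replicate 3, which had 1 count: without that library the changes were 1.10 and 0.67, with adjusted p of 0.175 and 0.417. With control replicate 1 kept they were 0.24 and -0.18, with adjusted p of 0.795 and 0.849. The AAV9-AIPL1co call held in 19 of 22 alternatives and the AAV9-AIPL1wt call in 12 of 22, with adjusted p from 0.00715 to 0.849 in the latter. This call was also lost without AAV9-AIPL1co replicate 2, AAV9-AIPL1wt replicate 1 or AAV9-AIPL1wt replicate 2, with adjusted p of 0.0518, 0.0551 and 0.0888. With no filter on low counts the adjusted p values were 0.00109 and 0.0248.

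Control replicate 1 also stood apart in NF-kB target and immediate early genes. Of 9 tested NF-kB targets, 3 were higher and 1 lower in AAV9-AIPL1co against the other controls, with a median log2 fold change of 0.50, and 2 were higher and 2 lower in AAV9-AIPL1wt, with 0.41. That is 44.4% called in each, against 46.8% and 56.3% of all genes. Of 6 immediate early genes 4 were higher in each (66.7% against the same shares of all genes), with medians of 1.10 and 0.90. Against AAV9-GFP 5 NF-kB targets were higher and 1 lower in AAV9-AIPL1co (66.7% called, against 30.9% of all genes). In AAV9-AIPL1wt 2 were higher and 2 lower (44.4% against 51.1%). Of the immediate early genes 3 were higher in each AIPL1 group against AAV9-GFP (50% against these shares of all genes). Their part in the levels of the IGFL genes was not tested.

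In the other contrasts IGFL4 was not called. AAV9-GFP had a mean of 6.47 ± 3.68 normalized counts (n = 3). AAV9-AIPL1co exceeded it by 1.14 on the log2 scale (SE 0.46, adjusted p = 0.0664), which became 1.63 with an adjusted p of 0.0365 without AAV9-GFP replicate 1, and AAV9-AIPL1wt by 0.68 (SE 0.49, adjusted p = 0.257). The AIPL1 groups differed by 0.45 (SE 0.42, adjusted p = 0.406), and AAV9-GFP exceeded the control by 0.83 (SE 0.66, adjusted p = 0.442). At these counts the intervals are wide, from -0.28 to 1.65 for AAV9-AIPL1wt against AAV9-GFP.

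**Figure D2:**
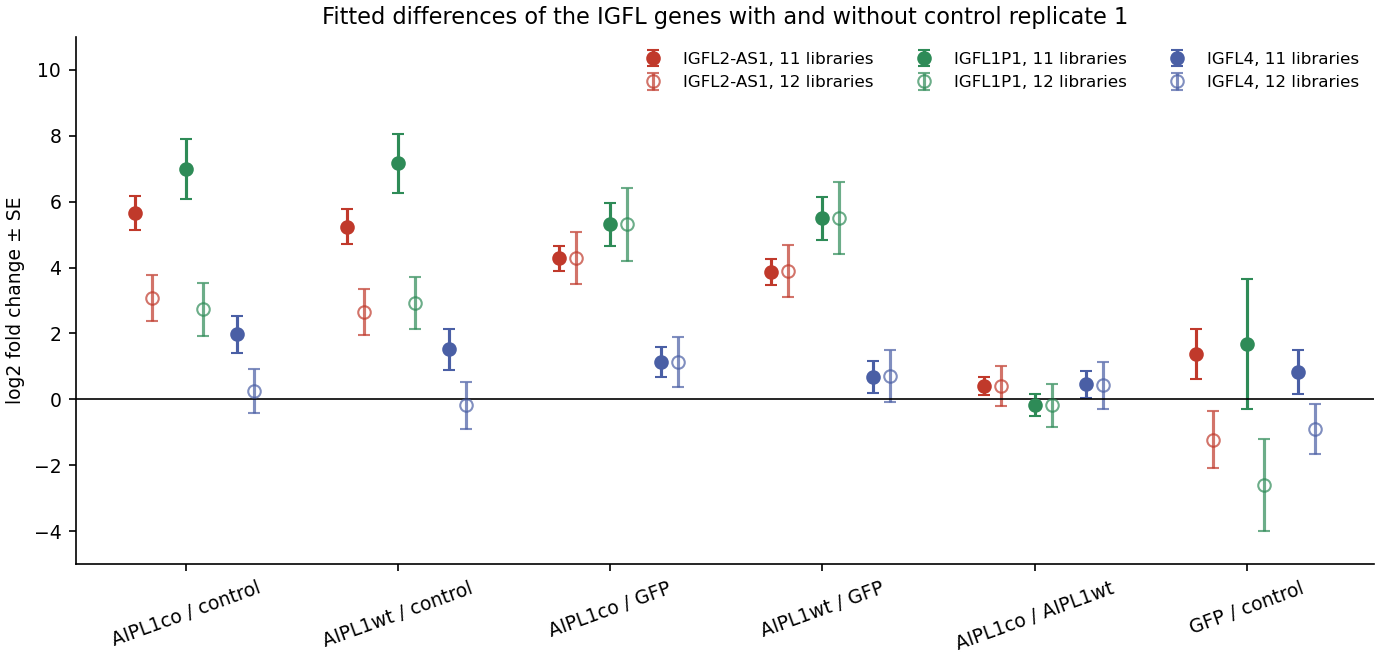
Fitted log2 fold changes ± SE of IGFL2-AS1, IGFL1P1 and IGFL4 in the 6 comparisons, first group over second, without (filled) and with (open) control replicate 1. Keeping that library takes IGFL2-AS1 against the control from 5.66 to 3.06 in AAV9-AIPL1co and turns the sign of AAV9-GFP against the control for all 3 genes. For IGFL1P1 the filled values rest on 5 counts in AAV9-GFP and 1 in the control, too few to compare these groups.

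The remaining coding genes were at or near 0 counts, IGFL1 in all 12 libraries. IGFL1 shares 95 exonic bases with the opposite-strand ENSG00000269745, and 1 read was left out of its counts there. IGFL2 had 1 count in AAV9-AIPL1wt replicate 1 and 1 and 2 in control replicates 2 and 3. IGFL3 had 1, 2 and 1 counts in AAV9-AIPL1co replicate 3, AAV9-AIPL1wt replicate 3 and AAV9-GFP replicate 3. None of the 3 passed the filter, and no fold is given. A count of 0 allows up to 3 counts in a library, which is 0.316 to 0.514 CPM at these depths. IGFLR1, the receptor, had 0 to 3 counts in each library.

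Of 18 genes of the wider insulin-like growth factor axis, 8 passed the filter. IGF1, IGF2 and INS, the ligands, had at most 2 counts in any library. In AAV9-AIPL1co against the control 4 of the 8 were higher and 2 lower, or 75% called against 46.8% of all genes tested, with a median log2 fold change of 0.33 against -0.02. In AAV9-AIPL1wt 3 were higher and 1 lower, or 50% against 56.3%, with medians of 0.13 and -0.04. IGF2R, which carries IGF2 to lysosomes, rose by 0.93 (SE 0.10, adjusted p = 1.40e-06) and 0.90 (SE 0.10, adjusted p = 9.53e-07). IRS1, an adaptor of the insulin and IGF1 receptors, rose by 0.75 (SE 0.16, adjusted p = 0.000704) and 0.96 (SE 0.16, adjusted p = 5.15e-05). IGFBP3, which binds IGFs in serum and around cells, fell, with log2 fold changes of -1.29 (SE 0.16, adjusted p = 6.88e-06) and -1.501 (SE 0.17, adjusted p = 7.57e-07). With control replicate 1 kept, whose IGFBP3 level was 118 normalized counts against a mean of 1225 in the other controls, the IGFBP3 calls were lost (adjusted p = 0.272 and 0.153).

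Against AAV9-GFP the axis gave the same counts, 4 higher and 2 lower in AAV9-AIPL1co and 3 higher and 1 lower in AAV9-AIPL1wt, or 75% called against 30.9% of all genes and 50% against 51.1%. IGFBP3 fell, with log2 fold changes of -1.06 (SE 0.15) and -1.27 (SE 0.15) and adjusted p of 4.17e-05 and 2.55e-06. These calls were lost too when control replicate 1 was in the fit (adjusted p = 0.183 and 0.0745). Between the AIPL1 vectors 2 of the 8 were higher in AAV9-AIPL1co and 2 lower (50% against 41.5% of all genes). INSR, the insulin receptor, was higher in AAV9-AIPL1co by 0.59 (SE 0.13, adjusted p = 0.00129), and so was IRS2 by 0.45 (SE 0.09, adjusted p = 0.000889). IGFBP6, a binding protein that prefers IGF2, was lower, with a log2 difference of -0.34 (SE 0.09, adjusted p = 0.00553), and so was IGF1R, the IGF1 receptor, with -0.30 (SE 0.11, adjusted p = 0.0356). No gene of the axis was called between AAV9-GFP and the control by edgeR.

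The annotation lists 69 other genes within 500 kb of the cluster, of which 21 were tested. Of these 11 were higher and 3 lower in AAV9-AIPL1co against the control (66.7% called, against 46.8% of all genes), with a median log2 fold change of 0.38. In AAV9-AIPL1wt 12 were higher and 4 lower (76.2% against 56.3%), with a median of 0.70. Against AAV9-GFP the counts were 9 higher and 3 lower in AAV9-AIPL1co (57.1% against 30.9%) and 10 higher and 6 lower in AAV9-AIPL1wt (76.2% against 51.1%). The higher genes in each of these 4 comparisons include a pair inside the cluster, described in the next paragraphs. This pair passed the filter only through AIPL1 libraries, which raises the counts and shares given here. DMPK, the myotonic dystrophy protein kinase gene, rose against AAV9-GFP by 0.84 (SE 0.12, adjusted p = 6.10e-05) in AAV9-AIPL1co and by 1.55 (SE 0.12, adjusted p = 2.78e-08) in AAV9-AIPL1wt. CCDC61, the tested gene nearest to IGFL4 outside the cluster, fell by 1.49 (SE 0.24, adjusted p = 5.44e-05) in AAV9-AIPL1wt and had a value of -0.51 in AAV9-AIPL1co (adjusted p = 0.0812). With control replicate 1 kept, 10 neighbours were called in AAV9-AIPL1wt against the control, not 16.

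Inside the cluster 7 genes are not IGFL genes, and 2 of them passed the filter, with more counts in both AIPL1 groups. Both are long non-coding RNAs on the plus strand. ENSG00000267922 had 7, 8 and 9 counts in AAV9-AIPL1co and 4, 19 and 9 in AAV9-AIPL1wt, 0 in all 5 AAV9-GFP and remaining control libraries, and 10 in control replicate 1. It was at least 7.87-fold and 11.5-fold higher than in AAV9-GFP, taking 3 counts in the whole group as the floor, and at least 6.09-fold and 8.93-fold higher than in the control. It passed the filter only through 1 AAV9-AIPL1co and 2 AAV9-AIPL1wt libraries, so these differences are given with no test. One of its exons overlaps an IGFL2-AS1 exon, as described above, and another lies in the IGFL2-AS1 intron that holds IGFL1P1.

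ENSG00000268460 begins inside IGFL2-AS1 and runs away from it. It had 7, 9 and 8 counts in AAV9-AIPL1co and 5, 29 and 9 in AAV9-AIPL1wt, 0, 1 and 2 in AAV9-GFP, 0 and 2 in control replicates 2 and 3, and 6 in control replicate 1. Its counts were 7.87 times (95% counting interval 2.39 to 40.8) and 15.5 times (4.96 to 78.1) those of AAV9-GFP. It passed the filter only through 2 AAV9-AIPL1wt libraries, so these ratios too carry no test. Both RNAs had their highest count in AAV9-AIPL1wt replicate 2, the library where IGFL1P1 was also highest. Of its 12 exon blocks 2 lie within the span of IGFL2-AS1, as do 2 of the 4 blocks of ENSG00000267922, and without strand reads of these blocks and of unspliced IGFL2-AS1 cannot be told apart. The other blocks of both lie outside that span, and reads were not counted by block.

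**Figure D3:**
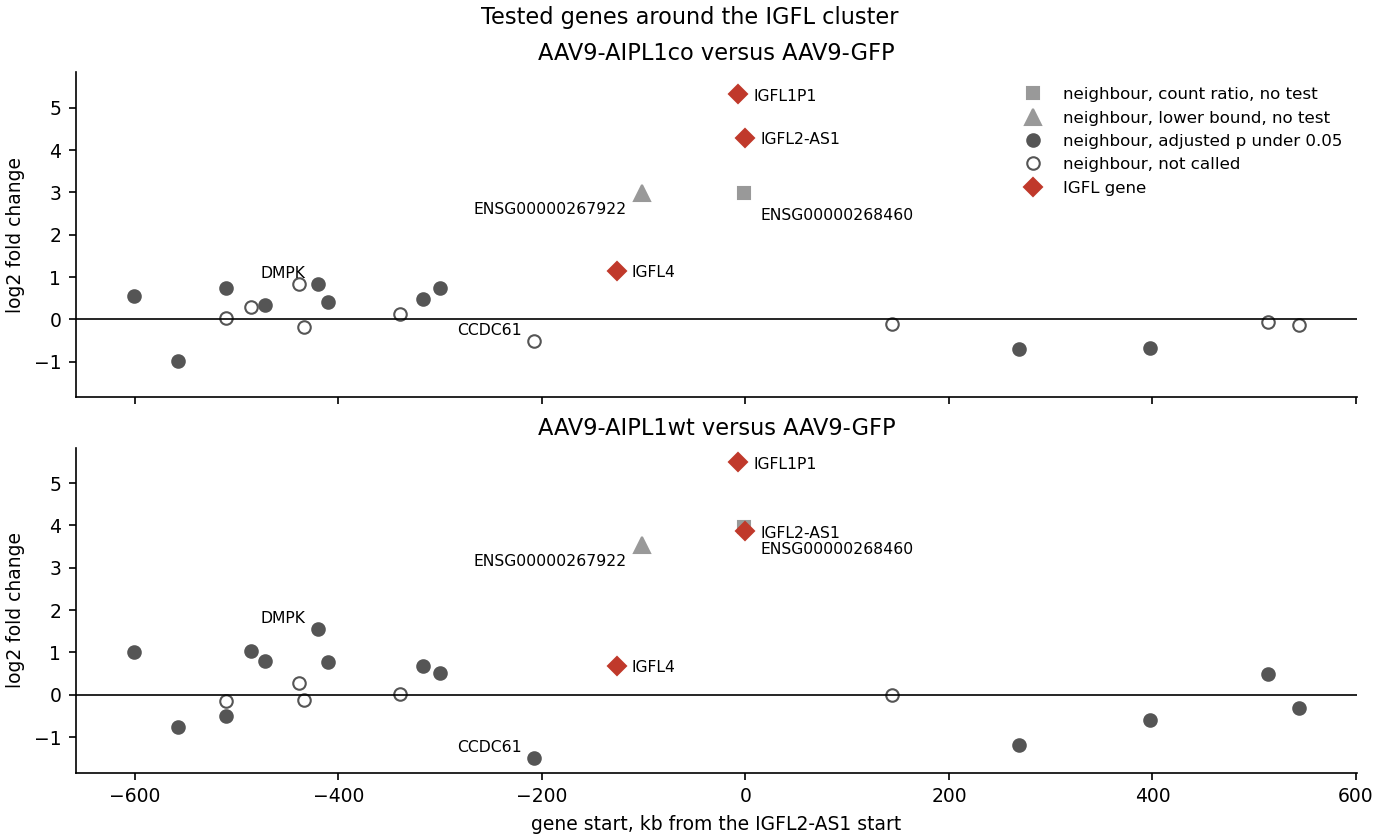
Log2 fold change against AAV9-GFP of the IGFL genes (red) and of the 21 tested neighbours (grey), by the distance of the gene start from that of IGFL2-AS1 in kb. The triangle is a lower bound for ENSG00000267922, which had 0 counts in AAV9-GFP, and the square is the count ratio of ENSG00000268460. Both are drawn with no test and lie above the other neighbours.

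Over the 12 libraries the 5 tested genes whose log2 normalized counts were most like those of IGFL2-AS1 included ARG2 (Pearson r = 0.986), IGFL1P1 (0.979), PLEKHM2 (0.978) and H1-10 (0.976). Those most like IGFL1P1 included CACFD1 (0.980), IGFL2-AS1 (0.979), ZSWIM8 (0.974) and DLGAP1-AS1 (0.974). IGFL4 was least like the pair, with r = 0.667 to IGFL2-AS1, and its closest included CES3 (0.954), CAMTA2 (0.914), CCDC69 (0.907) and NBPF9 (0.900). These libraries share groups and runs, so the values are descriptions. ARG2, the mitochondrial arginase, had a mean of 114 normalized counts in AAV9-AIPL1co, 88.7 in AAV9-AIPL1wt, 25.3 in AAV9-GFP, 15.0 in the control and 53.9 in control replicate 1.

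RefSeq promoters of GRCh38 (250 bases before to 50 after a gene's start) were at hand for 4 of the 6 genes, in 5 entries: IGFL1, IGFL2, IGFL3 and both starts of IGFL4. They were searched on both strands for the AP-1 motif TGANTCA, the NF-kB motif and the interferon-stimulated response element. IGFL3 held 1 AP-1 match, a motif found in 7.71% of 35116 promoters. No other match to these letters was in the 5 windows, where 1.91% and 3.57% of all promoters held the NF-kB motif and the response element. The 2 genes with the highest counts, IGFL2-AS1 and IGFL1P1, have no entry.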

How the data were processed

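Poly(A)-selected RNA of ARPE-19 cells was sequenced without strand as 60-base reads. The authors aligned them with STAR 2.7.10b to GRCh38 with Gencode 43 and vector sequences, and deposited raw counts per gene over exons from HTSeq 0.11.1. STAR's counts without strand equalled them in every gene. Here edgeR 4.0.16 (R 4.3.3) was run on 11 libraries with TMM scaling, on the 13896 genes left by filterByExpr, and its quasi-likelihood test used group as the sole term. Control replicate 1 was left out, as in the study. Benjamini-Hochberg adjustment covered all genes tested, with a threshold of 0.05. The SE is the log2 fold change over the square root of F, and 95% intervals assume a normal error. Normalized counts are scaled to a common effective library size. Fitted folds of 3 or fewer counts were replaced by ratios with exact intervals. Sequences are from GRCh38 and RefSeq, positions from Gencode 44, and alignment used Biopython 1.88.

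Genes named were all 6 members, up to 4 called genes of each list with the largest change, neighbours within 500 kb, and the 5 genes most correlated with each member; values of CCDC61 and ARG2 beyond this rule were chosen after they were seen. The members and lists were chosen with earlier results of these data known. The fits were tested on simulated data. Alternatives were all 12 libraries, a run term, both together, a replicate block, relative log expression scaling, library size only, no filter, 1 CPM in 3 libraries, DESeq2 1.42.0, only the groups compared, STAR counts, summed strand columns, and leaving out each library. qPCR, blots and imaging are not analysed here. Some genes and 1 sequence that meet these rules are not reported here.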

Additional observations from a re-analysis of the deposited data

Results flagged for a closer look

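Control replicate 1 is not in the comparisons, and 3 of the 6 genes stood there above the other controls, with more than 3 counts. IGFL2-AS1 had 116 normalized counts, against a mean of 6.95 in control replicates 2 and 3. IGFL1P1 had 31.2 against 0.412, and IGFL4 had 28.6 against 3.71, its highest level in any library. Among all 13896 genes tested, 7.40% were more than 2-fold higher in control replicate 1 than in the mean of the other controls and 7.32% more than 2-fold lower. In the same library all 12 NF-kB target genes listed and 5 of 6 immediate early genes were more than 2-fold higher, among them CXCL8 with 25201 counts against 2123 and 1650, and FOS with 875 against 4 and 10. With more than 3 counts there, none of the 18 genes of the insulin-like growth factor axis was, and IGFBP3 was 0.0963 times the level of the others. With 1 library no test was possible, and this library is the only control of the first sequencing run, so run and library cannot be told apart.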

How the results depend on the processing

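Numbers of called genes and log2 fold changes are given. IGFL1P1 was chosen on the contrasts with the control and with AAV9-GFP, so its calls there are not counted. IGFL4 passed the filter mainly through AIPL1 libraries, so its own calls there are read with that limit. With all 12 libraries, without and with a run term, the IGFL4 call was lost in AAV9-AIPL1co and in AAV9-AIPL1wt against the control. Called neighbours in AAV9-AIPL1wt against the control went from 16 to 10 in both settings. For AAV9-AIPL1wt the IGFL4 call was also lost with the replicate block, library size only, DESeq2 and only the groups compared. In AAV9-AIPL1co against AAV9-GFP, where IGFL4 was not called, it was called under the replicate block, no filter and only the groups compared. Leaving out single libraries changed the IGFL4 call in each of these 3 contrasts. IGFL2-AS1 between the AIPL1 vectors passed with no filter (0.39, adjusted p = 0.0355), and ran from 0.035 to 0.90 over single libraries left out. AAV9-GFP against the control passed for IGFL2-AS1 with no filter (1.39, adjusted p = 0.0176) and with only the groups compared (1.38, adjusted p = 0.0138), and was -1.22 and, with the run term, -1.23 over 12 libraries. Its 1 called neighbour, IRF2BP1, became 0 with the run term, the replicate block, library size only or no filter, 2 with relative log expression scaling and 4 with DESeq2 or only the groups compared, and 0 to 4 over single libraries left out.

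Signs turned in results that were not called or lost their call. Over 12 libraries, without and with the run term, IGFL4 was -0.18 and -0.23 in AAV9-AIPL1wt against the control, IGFL1P1 -2.59 and -2.61 and IGFL4 -0.89 and -0.97 in AAV9-GFP against the control. IGFL4 in AAV9-GFP against the control ran from -0.0059 (without control replicate 3) to 2.82 over single libraries left out, and IGFL1P1 between the AIPL1 vectors from -0.54 to 0.58. Beyond the libraries left out, the cause was not tested. Same-numbered replicates correlated at -0.06 to 0.24 in their deviations from the group means. Pairs with different numbers were not computed for reference, so this cannot decide whether the replicates were paired. The replicate block changed no other call of a member. IGFL1, IGFL2 and IGFL3 are limited by depth.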
